A study of Mus musculus with 8 samples.

Results

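Described here are Myc, its relative Mycn and the genes with which a cell builds ribosomes, a set of 44 mouse genes listed by symbol and grouped by role. Each gene is represented by the probe set of its symbol with the highest mean over the 8 arrays of the series. Of the 44 genes 43 had a probe set under their symbol, out of 18193 genes named on the array, and all 43 were among the 12177 genes above the signal filter (a log2 signal above 5 on at least 2 arrays). Npm3, a nucleolar chaperone, had none. The 43 genes carried 90 probe sets in all, with 14 genes on 1 probe set and 29 on several. The arrays hold 4 groups of 2: EGFP-high and EGFP-low cells of Lewis lung carcinoma (LLC), a mouse lung tumour line, and EGFP-high and EGFP-low cells of colon26, a mouse colon carcinoma line. Both lines stably carried EGFP driven by the mouse promoter of PSF1, the protein that Gins1 encodes, and EGFP thus reports the activity of that promoter, not the amount of the protein. Tumours were grown under the skin of mice, for 4 weeks from LLC and for 2 weeks from colon26, then dissociated and sorted by FACS. The labels give neither the mouse strain or age, nor whether a line is 1 clone or arrays 1 and 2 came from separate tumours, although they call them biological replicates. The p-values therefore describe the spread among these arrays.

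Myc is a transcription factor that binds DNA with its partner Max, preferably at the E-box CACGTG, and genes of ribosome production are among its best known targets. RNA polymerase I transcribes the ribosomal RNA precursor in the nucleolus. Small nucleolar ribonucleoproteins (snoRNPs) then modify it, and separate sets of assembly factors cut, fold and pack it into the small and the large subunit. Growing and dividing cells need many ribosomes, and proliferating tumour cells are known for large nucleoli.

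High and low arrays of the same line and number behaved as pairs. The closest array to each of the 8 by Pearson r across genes, which are not independent replicates, was the one of its own line and number in 8 of 8 cases. Arrays numbered 1 and 2 differed in RNA representation, since the log2 signal of 4 control transcripts was higher at the 3′ than the 5′ end by 2.55 ± 0.13 (SD, n = 4) on the arrays numbered 1 and by 0.18 ± 0.15 (SD, n = 4) on those numbered 2. The numbers are therefore a block in every test, and values within each number are given beside the pooled ones. Gins1 followed the sort, with 8.42 and 8.51 in LLC high cells, against 7.23 and 7.14 in LLC low cells (change 1.28, limma adjusted p = 0.0033). It stood at 8.29 and 8.38 in colon26 high cells, against 7.56 and 6.97 in colon26 low cells (1.07, adjusted p = 0.017). Of the epithelial markers, Krt19 and Cdh1 were at most 5 on every array, and Krt8 lay between 12.36 and 12.80 in LLC but between 5.31 and 5.95 in colon26. Krt18 lay between 8.43 and 9.14 in LLC and between 3.84 and 5.05 in colon26, and Epcam between 6.7 and 7.18 in LLC and between 5.99 and 6.43 in colon26. Epithelial markers were thus low or at background in colon26, which is labelled a colon cancer line, and the lines differed most in Krt8 and Krt18.

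In LLC, ribosome biogenesis genes were higher in EGFP-high cells: 43 of 43 changes were positive, 7 of 43 rose and 0 fell. A change is the log2 signal in EGFP-high minus that in EGFP-low cells, and a gene is called, as having risen or fallen, at a limma adjusted p under 0.05 in a fit that blocks on the pair. The 7 were Nhp2, Nolc1, Fbl, Wdr12, Nop56, Gar1 and Srm, with changes between 0.67 and 0.95, or 1.59-fold to 1.93-fold. The 16.3% of members that rose compares with 4.98% of all genes tested, and 6.04% of all genes fell. At an unadjusted p under 0.05, limma had 24 of 43 members against 25.2% of all genes. The median change was 0.47 for the members and 0.04 for all genes, of which 6722 of 12177 had a positive change. Both LLC high arrays lay above both LLC low arrays for 15 of 43 members and for 17.4% of all genes. The arrays numbered 2 stood above those numbered 1 by −1.10 to 2.09 over the members, a wider range than that of the sort. The count rests on both LLC pairs. Only Nhp2 was called without LLC pair 1, 0 of 43 members without LLC pair 2 (2 at an unadjusted p under 0.05, against 9.99% of all genes) and 3 without either colon26 pair, which share in the estimate of the spread; with no block it was 0 (5 unadjusted, against 6.52% of all genes). When a gene's probe sets were averaged, the calls of Wdr12 (0.23, adjusted p = 0.41) and Fbl (0.61, adjusted p = 0.065) ended.

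In colon26 the changes were smaller and no member passed. The median change was 0.23, with 39 of 43 positive, against 0.08 for all genes, with 7506 of 12177 positive. In limma 0 of 43 rose and 0 fell, where 2.18% of all genes rose and 1.58% fell, and 10 of 43 had an unadjusted p under 0.05 against 16.5% of all genes. Both colon26 high arrays lay above both colon26 low arrays for 9 of 43 members and for 12.0% of all genes. The size depended on the scaling. After quantile normalization the members' median was 0.08 with 31 of 43 positive, beside −0.01 for all genes, and after median centring it was 0.27 with 40 positive, beside 0.13.

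Over the mean of both lines 12 of 43 members rose, or 27.9%, and 0 fell, where 7.47% of all genes rose and 5.57% fell. To the 7 of LLC this mean added Dkc1, Bop1, Nop16, Rrp1b and Pa2g4. The 12 changed by 1.41-fold to 1.59-fold and were higher in the high array in 4 of 4 pairs. This was so for 30 of all 43 members, against 21.4% of all genes. A mean of the lines can pass with most of the change in one of them, and all 12 had their larger change in LLC. The change was larger in LLC than in colon26 for 37 of 43 members, and for 5584 of the 12177 genes tested. The limma test of that difference nevertheless called 0 of the 43 members (1 at an unadjusted p under 0.05, Noc4l, adjusted p = 0.26). Of all genes it called 1.41%, with 14.2% at an unadjusted p under 0.05. The count of 12 was 8 without LLC pair 1, 0 without LLC pair 2 (12 at an unadjusted p under 0.05, against 15.1% of all genes), 4 without colon26 pair 1, and 0 without colon26 pair 2 (18 unadjusted, against 22.5%). It was 6 after quantile normalization, with 41 of 43 changes positive, and 0 with no block (6 unadjusted, against 8.06% of all genes). Averaging each gene's probe sets ended the calls of Wdr12 (0.25, adjusted p = 0.18), Bop1 (0.23, adjusted p = 0.23) and Nop16 (0.38, adjusted p = 0.10).

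**Figure D1:**
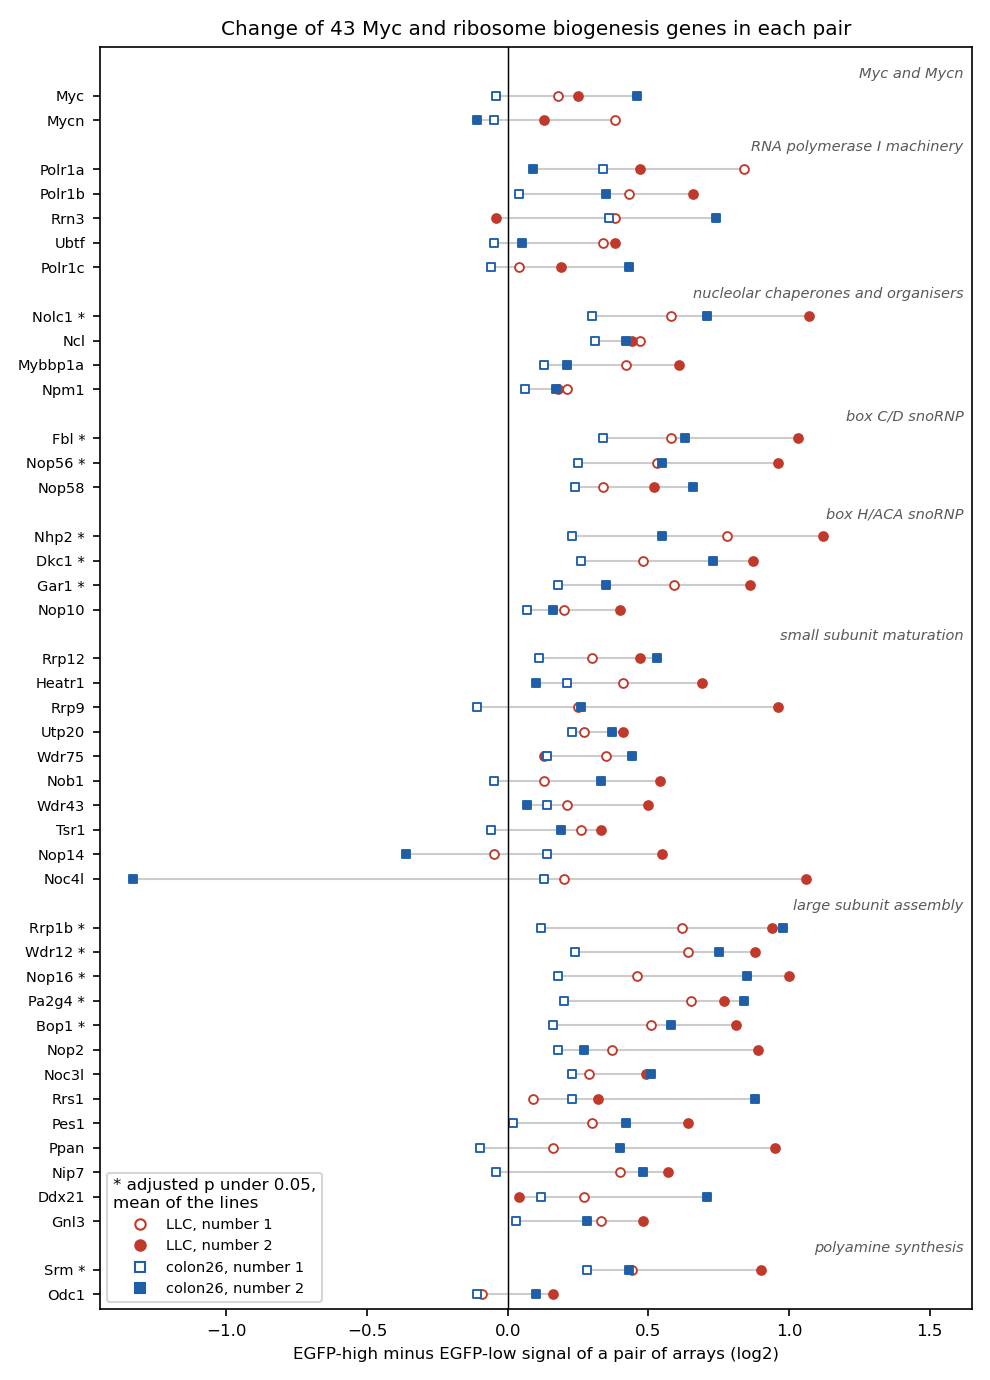
Change of each of the 43 genes in each of the 4 pairs (x axis, EGFP-high minus EGFP-low log2 signal), with genes grouped by role down the y axis and 1 symbol per pair. Most symbols lie right of 0, the median being 0.35 and 0.55 in LLC pairs 1 and 2 and 0.14 and 0.42 in colon26 pairs 1 and 2.

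The pairs differed in the size of the change. The members' median was 0.35 in LLC pair 1 and 0.55 in LLC pair 2, and 0.14 in colon26 pair 1 and 0.42 in colon26 pair 2. For all genes these medians were 0.05, 0.03, 0.02 and 0.18. The change was larger in pair 2 than in pair 1 for 36 of 43 members in LLC, where that held for 46.1% of all genes, and for 37 of 43 members in colon26, where it held for 68.6%. The arrays numbered 2 are those with the smaller 3′ to 5′ difference, and the part of RNA representation in this was not tested.

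Myc itself, the regulator of the set, did not pass in either line. Its log2 signal was 10.86 and 11.20 in LLC high cells, against 10.67 and 10.95 in LLC low cells, and 9.42 and 9.78 in colon26 high cells, against 9.45 and 9.32 in colon26 low cells (pairs of values are arrays 1 and 2 throughout). The high and low arrays overlapped in both lines, and array 1 of colon26 high cells lay just below its partner. The change was 0.22 in LLC (SE 0.19, limma adjusted p = 0.54) and 0.21 in colon26 (SE 0.19, adjusted p = 0.61). Mycn, which acts on the same sites and is best known from neural and embryonic tissue, had 5.85 and 6.00 in LLC high cells, against 5.47 and 5.87 in LLC low cells, and 5.40 and 5.63 in colon26 high cells, against 5.45 and 5.74 in colon26 low cells. All 8 values lay near the signal filter and overlapped, with a change of 0.25 in LLC (adjusted p = 0.43) and −0.08 in colon26 (adjusted p = 0.86).

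The RNA polymerase I machinery had 0 of 5 members called in limma (3 at an unadjusted p under 0.05 over both lines, against 27.4% of all genes), with a median change of 0.36 over both lines and a range of 0.15 to 0.43. Ubtf, the factor that opens ribosomal DNA for the polymerase, had 8.32 and 9.09 in LLC high cells, against 7.99 and 8.72 in LLC low cells, and 8.19 and 9.17 in colon26 high cells, against 8.24 and 9.11 in colon26 low cells. Its arrays followed the number more than the sort, and its change was 0.36 in LLC (adjusted p = 0.24) and 0.00 in colon26 (adjusted p = 1.0). The catalytic subunits Polr1a (0.65 in LLC, adjusted p = 0.052) and Polr1b (0.54, adjusted p = 0.093) had the larger changes there. Polr1b had 7.81 and 8.15 in LLC high cells, against 7.38 and 7.49 in LLC low cells, and 7.05 and 7.30 in colon26 high cells, against 7.02 and 6.95 in colon26 low cells, with no overlap of the sorts in either line. Rrn3, which recruits the polymerase to its start site, had 0.17 in LLC and 0.55 in colon26 (adjusted p = 0.67 and 0.19), the reverse order of most members. Polr1c, a subunit shared with RNA polymerase III, had 0.11 and 0.18.

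Of the nucleolar chaperones 1 of 4 rose in LLC and over both lines, where 4.98% and 7.47% of all genes rose. Nolc1, a phosphoprotein that escorts snoRNPs through the nucleolus, had 9.57 and 10.15 in LLC high cells, against 8.99 and 9.08 in LLC low cells, and 9.62 and 10.12 in colon26 high cells, against 9.32 and 9.41 in colon26 low cells. High and low arrays did not overlap in either line. Nolc1 rose by 0.82 in LLC (SE 0.20, limma adjusted p = 0.026), and its change in colon26 was 0.51 (adjusted p = 0.25). Ncl, nucleolin, which binds the young ribosomal transcript, had 11.85 and 12.55 in LLC high cells, against 11.37 and 12.11 in LLC low cells, and 11.55 and 12.26 in colon26 high cells, against 11.24 and 11.84 in colon26 low cells. Each high array lay above its partner, and the change over both lines was 0.41 (SE 0.12, adjusted p = 0.056). Npm1, nucleophosmin, an abundant histone and ribosome chaperone, had 13.02 and 12.78 in LLC high cells, against 12.81 and 12.60 in LLC low cells, and 12.97 and 12.75 in colon26 high cells, against 12.90 and 12.58 in colon26 low cells. It too was higher in each pair, by 0.15 over both lines (adjusted p = 0.48). Mybbp1a, a nucleolar Myb-binding protein, had a change of 0.34 over both lines (adjusted p = 0.11).

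The snoRNP proteins had the largest shares of members called over both lines among the roles. Of all genes 4.98% rose in LLC and 7.47% over both lines. The box C/D particles attach methyl groups to ribosomal RNA, and 2 of their 3 proteins rose in LLC and over the mean of the lines, with a median of 0.57 in that mean. Fbl, fibrillarin, the methyltransferase itself, had 11.21 and 11.89 in LLC high cells, against 10.63 and 10.86 in LLC low cells, and 11.33 and 11.60 in colon26 high cells, against 10.99 and 10.97 in colon26 low cells. The sorts did not overlap in either line, and Fbl rose by 0.80 in LLC (SE 0.19, limma adjusted p = 0.025) with a change of 0.49 in colon26 (adjusted p = 0.25). Nop56, a scaffold of the same particle, had 11.16 and 10.91 in LLC high cells, against 10.64 and 9.95 in LLC low cells, and 11.02 and 10.72 in colon26 high cells, against 10.77 and 10.17 in colon26 low cells. The LLC arrays separated and the colon26 arrays overlapped, with a rise of 0.74 in LLC (SE 0.19, adjusted p = 0.034) and a change of 0.40 in colon26 (adjusted p = 0.33). Its partner Nop58 had 0.43 in LLC and 0.45 in colon26 and did not pass (adjusted p = 0.055 over both lines).

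The box H/ACA particles convert uridine to pseudouridine, and 3 of their 4 proteins rose over both lines, against 7.47% of all genes, with a median change of 0.54. Nhp2, a core protein that binds the guide RNA, had 9.96 and 11.36 in LLC high cells, against 9.18 and 10.24 in LLC low cells, and 9.95 and 11.41 in colon26 high cells, against 9.71 and 10.86 in colon26 low cells. Arrays 2 stood above arrays 1 in all 4 groups, so the sorts overlapped, yet each high array exceeded its partner, by 0.78 and 1.12 in LLC and by 0.23 and 0.55 in colon26. Nhp2 rose by 0.95 in LLC (SE 0.19, limma adjusted p = 0.010), the largest change of the 43 there. Gar1, another core protein, showed the same layout, with 9.72 and 10.68 in LLC high cells, against 9.13 and 9.82 in LLC low cells, and 9.50 and 10.55 in colon26 high cells, against 9.31 and 10.20 in colon26 low cells. It rose by 0.72 in LLC (SE 0.18, adjusted p = 0.029), with a change of 0.27 in colon26 (adjusted p = 0.49). Dkc1, dyskerin, the pseudouridine synthase, had 10.33 and 10.93 in LLC high cells, against 9.85 and 10.06 in LLC low cells, and 9.40 and 9.89 in colon26 high cells, against 9.14 and 9.15 in colon26 low cells. Its sorts did not overlap in either line, and it rose by 0.59 over both lines (SE 0.14, adjusted p = 0.022), with 0.67 in LLC (adjusted p = 0.057). Nop10, the smallest protein of the particle, had 0.21 over both lines (adjusted p = 0.33).

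**Figure D2:**
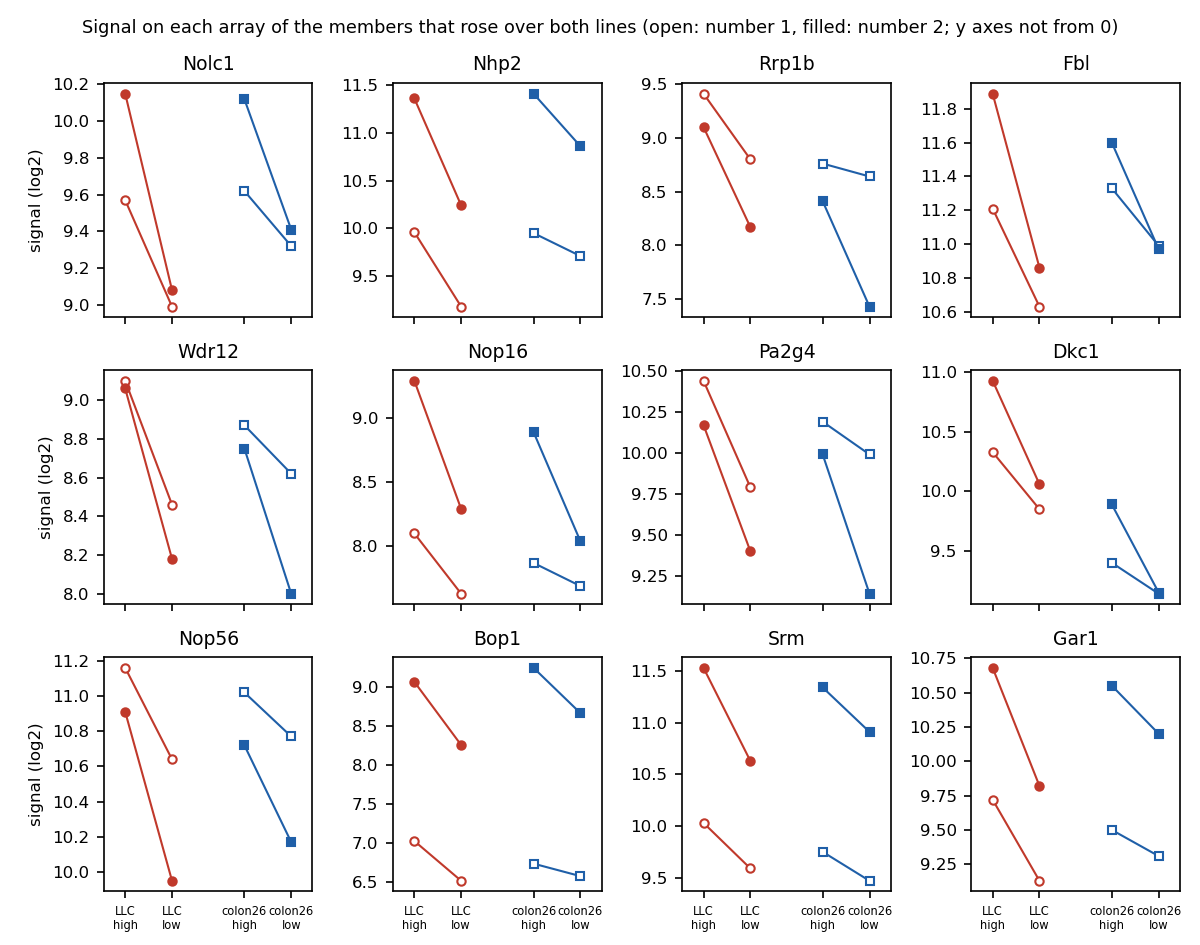
Log2 signal (y axis, not from 0) on each array of the 12 genes that rose over both lines, with EGFP-high left of EGFP-low cells in each line (x axis) and lines joining the arrays of a pair (open symbols for number 1, filled for number 2). Every line slopes down to the low cells, while for Nhp2, Gar1, Srm and Bop1 the arrays numbered 2 lie far above those numbered 1.

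Of 13 large subunit assembly factors 1 (7.7%) rose in LLC and 5 (38.5%) over both lines, where 4.98% and 7.47% of all genes rose. The LLC share was near that of all genes. Their median change over both lines was 0.38, with a range of 0.28 to 0.66. Pes1, Bop1 and Wdr12 form the PeBoW complex, which large subunit maturation needs. Wdr12 had 9.10 and 9.06 in LLC high cells, against 8.46 and 8.18 in LLC low cells, and 8.87 and 8.75 in colon26 high cells, against 8.62 and 8.0 in colon26 low cells. The sorts did not overlap, and Wdr12 rose by 0.76 in LLC (SE 0.20, limma adjusted p = 0.033). Bop1 had 7.02 and 9.06 in LLC high cells, against 6.51 and 8.25 in LLC low cells, and 6.73 and 9.24 in colon26 high cells, against 6.57 and 8.66 in colon26 low cells. Arrays 2 exceeded arrays 1 by more than the sorts differed, and the rise over both lines was 0.51 (SE 0.14, adjusted p = 0.033). Pes1 did not pass, with 7.81 and 8.51 in LLC high cells, against 7.51 and 7.87 in LLC low cells, and 8.30 and 9.51 in colon26 high cells, against 8.28 and 9.09 in colon26 low cells (0.35 over both lines, adjusted p = 0.13). All 3 proteins' genes were thus higher in each pair, and 2 of the 3 passed.

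The other large subunit factors that rose over both lines were Nop16, Rrp1b and Pa2g4. Nop16, a nucleolar protein described as a Myc target, had 8.10 and 9.29 in LLC high cells, against 7.63 and 8.29 in LLC low cells, and 7.87 and 8.89 in colon26 high cells, against 7.69 and 8.04 in colon26 low cells. Its sorts overlapped through the number, with a rise over both lines of 0.62 (SE 0.16, limma adjusted p = 0.026). Rrp1b, a nucleolar protein of large subunit processing, had 9.41 and 9.10 in LLC high cells, against 8.80 and 8.17 in LLC low cells, and 8.76 and 8.41 in colon26 high cells, against 8.64 and 7.43 in colon26 low cells. The LLC sorts separated, and most of the colon26 change lay in pair 2 (0.98, against 0.12 in pair 1). Its rise over both lines was 0.66 (SE 0.16, adjusted p = 0.022). Pa2g4, which binds ribosomes and their precursors, had 10.44 and 10.17 in LLC high cells, against 9.79 and 9.40 in LLC low cells, and 10.19 and 9.99 in colon26 high cells, against 9.99 and 9.14 in colon26 low cells. The LLC sorts separated and the colon26 sorts met at 9.99, with a rise over both lines of 0.62 (SE 0.14, adjusted p = 0.019) and changes of 0.20 and 0.84 in the colon26 pairs.

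The remaining large subunit factors named by their tests did not pass the sort comparison. Nop2, a methyltransferase of large subunit RNA, had 8.35 and 8.80 in LLC high cells, against 7.98 and 7.90 in LLC low cells, and 8.71 and 8.86 in colon26 high cells, against 8.53 and 8.58 in colon26 low cells. Its sorts did not overlap in either line, with a change of 0.63 in LLC (limma adjusted p = 0.064). Rrs1, which helps load the small 5S particle, had 11.27 and 11.21 in LLC high cells, against 11.18 and 10.89 in LLC low cells, and 11.04 and 10.57 in colon26 high cells, against 10.81 and 9.69 in colon26 low cells. Ddx21, a nucleolar RNA helicase, had 10.19 and 9.73 in LLC high cells, against 9.93 and 9.69 in LLC low cells, and 8.85 and 8.31 in colon26 high cells, against 8.73 and 7.60 in colon26 low cells. For both genes colon26 low array 2 was the lowest of the 8, and the changes over both lines were 0.38 (adjusted p = 0.12) and 0.29 (adjusted p = 0.23). Gnl3, nucleostemin, a nucleolar GTPase of stem and tumour cells, had 0.28 (adjusted p = 0.19). The other 4, Ppan, Noc3l, Nip7 and Pes1, lay between 0.35 and 0.38.

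The small subunit factors had 0 of 10 members called in either line or over both in limma, with 4 at an unadjusted p under 0.05 over both lines, against 27.4% of all genes. Their median change was 0.35 in LLC and 0.12 in colon26, with ranges of 0.24 to 0.63 and −0.60 to 0.32. Heatr1, a large scaffold of the small subunit processome, came closest in LLC (0.55, limma adjusted p = 0.083). Rrp12, which helps pre-ribosomes leave the nucleus, had 6.20 and 6.77 in LLC high cells, against 5.90 and 6.30 in LLC low cells, and 7.07 and 7.42 in colon26 high cells, against 6.97 and 6.89 in colon26 low cells. It was higher in each pair, and its change over both lines was 0.35 (adjusted p = 0.12). The remaining changes over both lines were between 0.01 and 0.34, those of the processome proteins Wdr43, Wdr75 and Utp20 being 0.23, 0.27 and 0.32. The negative change of −0.60 in colon26 was that of Noc4l, whose signal of 9.75 on colon26 low array 2 stood well above its other 7 values of 7.04 to 8.66. That 0 of 10 small subunit and 5 of 13 large subunit factors passed does not show that the groups differ, which was not tested.

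The 2 genes of polyamine synthesis, a pathway that Myc is known to drive, had different values. Srm, spermidine synthase, had 10.03 and 11.53 in LLC high cells, against 9.59 and 10.63 in LLC low cells, and 9.75 and 11.34 in colon26 high cells, against 9.47 and 10.91 in colon26 low cells. Each high array exceeded its partner although the sorts overlapped, and Srm rose by 0.67 in LLC (SE 0.19, limma adjusted p = 0.048). Odc1, ornithine decarboxylase, the first enzyme of the pathway and a classic Myc target, had 12.60 and 12.77 in LLC high cells, against 12.68 and 12.61 in LLC low cells, and 12.58 and 12.62 in colon26 high cells, against 12.69 and 12.51 in colon26 low cells. Its high array was below its partner in both pairs numbered 1 and above it in both numbered 2, with a change of 0.02 over both lines (SE 0.13, adjusted p = 0.96).

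Promoter windows were searched because the E-box is the textbook site of Myc. RefSeq windows of GRCm38.p6, from 250 bases before to 50 after the start, were at hand for 37 of 44 members. CACGTG, which reads the same on both strands, occurred in 7 of 37 members (18.9%), against 11.5% of the genes tested and 8.09% of all genes with a window. All 7 were members that did not pass over both lines, 7 of 27, against 0 of 9 that rose and had a window. This split depends on the probe set and the fit, since Mybbp1a and Wdr43, 2 of the 7, passed over both lines on another probe set, and Nop2 did with a filter of 7, median centring or trend and robust moderation. CACGCG on either strand, a weaker variant of the E-box that does not overlap it, occurred in 12 of 37 members (32.4%), against 19.5% of genes tested and 10.5% of all genes, and in 3 of the 9 that rose. A match is a stretch of letters, not a bound site. The 3 excerpts below show a variant in a gene that rose and the E-box in members that did not pass, each on the plus strand with the motif in capitals, and their changes over both lines were 0.67, 0.43 and 0.36 in the order shown. They are Nolc1 at chr19:46075782-46075846 with the variant, read here as CGCGTG, starting 25 bases before the gene's start. The others are Nop2 at chr6:125131783-125131868 with an E-box 60 bases before it, and Rrn3 at chr16:13780449-13780696 with 2 E-boxes, 215 and 48 bases before it.
Nolc1: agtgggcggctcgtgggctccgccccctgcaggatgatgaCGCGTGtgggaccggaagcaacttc
Nop2: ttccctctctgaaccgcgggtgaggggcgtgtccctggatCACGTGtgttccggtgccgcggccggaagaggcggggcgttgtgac
Rrn3: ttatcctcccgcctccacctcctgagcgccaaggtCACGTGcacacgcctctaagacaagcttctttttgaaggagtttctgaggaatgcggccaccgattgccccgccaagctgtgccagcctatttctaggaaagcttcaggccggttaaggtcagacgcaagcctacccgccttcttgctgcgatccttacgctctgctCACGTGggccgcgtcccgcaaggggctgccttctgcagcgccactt

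Other genes of the same pathways were described by lists. Of 98 other ribosome biogenesis factors 7 rose in LLC, 0 in colon26 and 19 in the mean of the lines, and 0 fell, with medians of 0.39, 0.29 and 0.33. Of all genes 4.98%, 2.18% and 7.47% rose, with medians of 0.04, 0.08 and 0.04. The 7.1% of these factors that rose in LLC thus lay near the share of all genes. Among them, over both lines, were Tcof1, treacle, a partner of RNA polymerase I (0.69), Wdr74 (0.63), the processome protein Utp6 (0.64) and Znhit3, an assembly factor of box C/D particles (0.80). Of 16 genes of the exosome, which trims and degrades ribosomal RNA, 5 rose over both lines, including the core subunit Exosc8 (0.93), the nuclease Dis3 (0.61), Exosc7 (0.67) and Exosc2 (0.56). Of 25 other RNA polymerase I and III genes 3 (12.0%) rose over both lines, not far from the 7.47% of all genes. They were Polr3g (0.64), Polr3b (0.61) and Polr1e (0.54), all subunits of these enzymes.

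Of 19 genes of the Myc network 4 rose and 1 fell over both lines, with a median of 0.09. Of all genes 7.47% rose and 5.57% fell over both lines, with a median of 0.04. Mxd4, a repressor that competes with Myc for Max, fell by 1.03 (SE 0.15, limma adjusted p = 0.0013), whereas Mxd3 of the same family rose by 1.08 (SE 0.20, adjusted p = 0.0056). Skp2, a ubiquitin ligase subunit, rose by 0.74, and Ruvbl2, an ATPase of chromatin and snoRNP assembly, by 0.75. Of 30 other genes that Myc is known to activate 10 rose and 0 fell over both lines (median 0.38), among them the transferrin receptor Tfrc (0.82), the mitochondrial serine enzyme Shmt2 (0.89), the repair enzyme Apex1 (0.53) and the translation factor Eif4e (0.51). Of 10 other polyamine genes 1 rose and 2 fell over both lines. Those that fell were Sat1 (−1.10) and Smox (−0.73), which break polyamines down or back, and Azin1 (0.47), an inhibitor of antizyme that preserves Odc1 protein, rose.

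Cell cycle genes changed by more in the same arrays. Of 26 S phase genes 19 rose in LLC, 10 in colon26 and 24 in the mean of the lines (median 0.97), among them Pole (1.29) and Tk1 (1.57). Of all genes 4.98%, 2.18% and 7.47% rose. Of 24 genes of G2 and mitosis 24 rose in LLC, 23 in colon26 and 24 in the mean of the lines (median 1.82), for instance Ndc80 (1.77) and Kif11 (2.06). Markers of some other cell types, mainly macrophages, fibroblasts and neutrophils, moved the other way, where 6.04% of all genes fell in LLC and 1.58% in colon26. Of 13 macrophage markers 9 fell in LLC and 12 in colon26, with summed linear signals of 840 to 945 in LLC high cells, against 2457 to 2750 in LLC low cells, and 1465 to 2259 in colon26 high cells, against 7071 to 11287 in colon26 low cells. Of 11 fibroblast markers 9 fell in LLC and 4 in colon26, with sums of 10326 to 10881 in LLC high cells, against 32248 to 48153 in LLC low cells, and 33532 to 34939 in colon26 high cells, against 39904 to 49314 in colon26 low cells. Lyz2 of macrophages fell by 2.16 in LLC and fell by 4.64 in colon26. All 3 neutrophil markers tested fell in colon26 and 2 in LLC, and of 6 endothelial markers 3 fell in colon26 and 0 in LLC (Tek and Vwf at most 5 on every array), while 0 of 4 T and NK cell markers changed in either line in limma. The 1 B cell marker and 2 muscle markers tested were not called in either line. The erythroid and adipocyte markers measured were at most 5 on every array. The part of these cells and of the cell cycle in the members' changes was not tested, nor was which cells carried the marker transcripts. Fewer cells of a type and less RNA per cell cannot be told apart in such bulk samples.

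**Figure D3:**
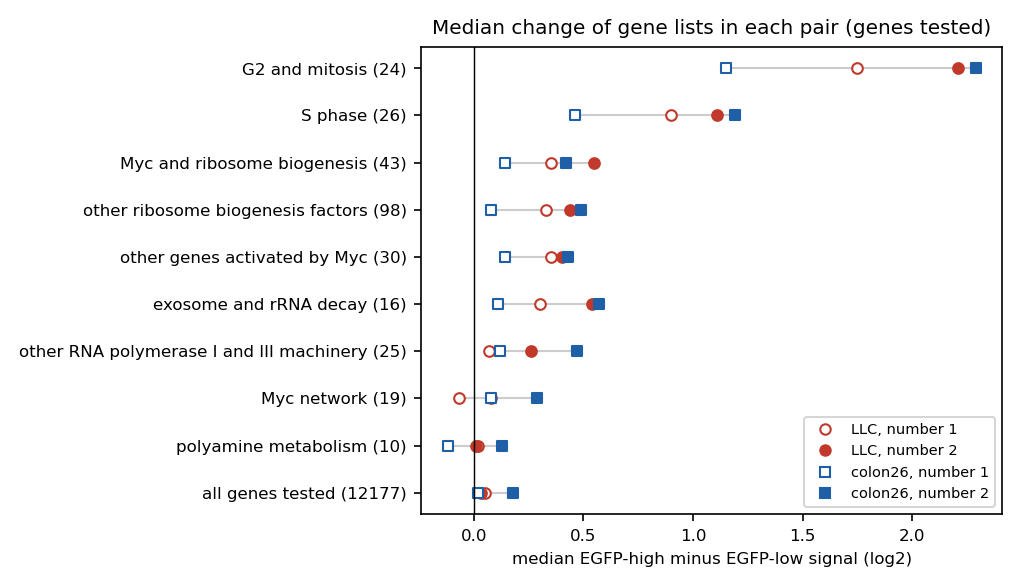
Median change in each of the 4 pairs (EGFP-high minus EGFP-low, log2) of the member genes, of each list of growth and cell cycle genes and of all genes tested (numbers of genes in brackets). The members lie between 0.14 and 0.55, near the other ribosome biogenesis factors (0.08 to 0.49), and in each pair below S phase (0.46 to 1.19) and G2 and mitosis (1.15 to 2.29). Open symbols are the pairs numbered 1 and filled ones those numbered 2.

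The lines differed in the level of several members, Myc among them. In each such comparison LLC is set against colon26 within 1 sort, with the replicate number as a block. The line, its tissue, the time of growth (4 against 2 weeks) and the content of other cells cannot be told apart. Of 13 macrophage markers 11 were lower and 0 higher in LLC among low cells, where 25.2% and 21.0% of all genes were. Among high cells 1 was lower and 2 higher, where 23.5% and 15.7% of all genes were. Myc was higher in LLC by 1.43 among high cells and by 1.42 among low cells (SE 0.19 and limma adjusted p = 6.3e-04 each), or 2.70-fold and 2.68-fold. Within number 1 the difference was 1.44 among high cells and 1.22 among low cells, and within number 2 it was 1.42 and 1.63. All 4 LLC arrays lay above all 4 colon26 arrays, at 10.67 to 11.20 in LLC, against 9.32 to 9.78 in colon26. The sort moved Myc by 0.22 and 0.21, which did not pass.

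Among high cells 5 of 43 members were higher and 2 lower in LLC, where 15.7% of all genes were higher and 23.5% lower. Among low cells 5 were higher and 6 lower, where 21.0% of all genes were higher and 25.2% lower. The members' shares were below those of all genes in either direction. Besides Myc, the helicase gene Ddx21 was higher in LLC by 1.38 among high and 1.64 among low cells (adjusted p = 0.0021 and 8e-04), Dkc1 by 0.98 and 0.81 (0.0054 and 0.011) and Utp20 by 0.52 and 0.48 (0.040 and 0.046). The size for Ddx21 depended on the probe set. Its other set (1448271_a_at) read 0.48 and 0.63 (limma adjusted p = 0.10 and 0.039), and the mean of its sets 0.93 and 1.14 (0.0024 and 8.3e-04). Lower in LLC in both sorts were Rrp12, by −0.76 and −0.83 (adjusted p = 0.018 and 0.011), and Pes1, by −0.75 and −1.0 (0.029 and 0.0073). Polr1b (0.81) passed among high cells, and Rrs1 (0.79), Nhp2 (−0.58), Nop2 (−0.62), Noc3l (−0.50) and Noc4l (−1.15) among low cells. Averaging each gene's probe sets ended the low-cell calls of Nhp2 (−0.44, limma adjusted p = 0.078), Noc3l (−0.13, adjusted p = 0.56) and Noc4l (−0.21, adjusted p = 0.33). Another Noc3l set (1437500_at) read the other way among low cells, at 0.24 (adjusted p = 0.40). The other Noc4l sets read 0.30 (1443794_x_at), 0.13 (1438095_x_at) and −0.13 (1423827_s_at) among low cells, and none were called. Passing in 1 sort is no difference between sorts, since 0 of 43 passed the test of it given above. All of the called members, 7 of 7 and 11 of 11, had the same sign within number 1 and within number 2. They were called in a fit to these same arrays that blocks on the number, so this agreement is no further support.

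The line counts depended on single arrays and on the scaling. The 7 members among high cells were 4 without LLC high array 1, and 3 without LLC high array 2 or either colon26 high array. The 11 among low cells were 7 without either LLC high array, 4 without LLC low array 1, 2 without LLC low array 2, 6 without either colon26 high array, and 5 without colon26 low array 2. Myc and Ddx21 were called in each of these. With no block 1 member, Myc, was called in either sort. Among high cells 8 were higher and 1 lower after quantile normalization and 6 and 2 after median centring. Among low cells the counts were 4 and 5, and 6 and 2, where all genes had a median of −0.07 in the deposited values, −0.09 after quantile normalization and 0.04 after centring.

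**Figure D4:**
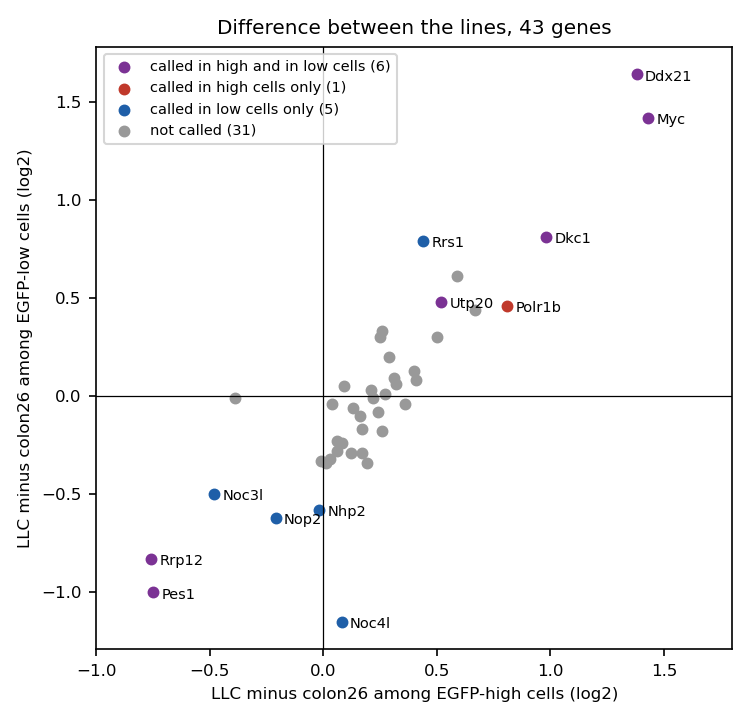
Difference between the lines for the 43 genes, LLC minus colon26 (log2) among EGFP-high cells (x axis) and among EGFP-low cells (y axis), coloured by whether limma called it in both sorts, in 1 or in none. Myc and Ddx21 stand apart at the upper right, Pes1 and Rrp12 at the lower left, and Noc4l lies low among low cells only.

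Further probe sets of the same genes gave a second reading. Of 47 others 43 were above the filter, covering 28 members, and 38 of the 43 had a positive change over both lines. When every probe set was its own unit, 6 of them were called higher in LLC, 15 over both lines and 0 in colon26, with 0 lower. Some genes read differently by probe set. The set standing for Noc4l had the 9.75 on colon26 low array 2, where its other 3 sets read between 6.90 and 7.52, and these changed by 0.49 to 0.67 over both lines, against 0.01 for the first. The line difference of Noc4l among low cells was −0.38, and not called, without colon26 low array 2. Wdr12, which rose on its main set, had 0.07 over both lines on a dimmer set of 3.86 to 5.94. The members that rose over both lines had 15 further sets above the filter, of which 8 were called higher over both lines and 7 were not.

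Mycn had the widest disagreement between probe sets. The set standing for the gene (1425923_at) differed between the lines by 0.41 among high and 0.08 among low cells and did not pass. A second one (1417155_at) read 3.63 and 3.56 in LLC high cells, against 6.42 and 6.25 in colon26 high cells, and 3.54 and 3.59 in LLC low cells, against 6.07 and 5.76 in colon26 low cells. All 4 LLC values were below the filter and all 4 colon26 values above it, so the size of the difference is limited by background and is not given. The third (1425922_a_at) read 3.93 to 4.21 in LLC, also below the filter, against 5.11 to 5.56 in colon26. On these 2 probe sets Mycn read lower in LLC than in colon26. Levels of different probe sets cannot be compared, and which sets read which transcripts was not tested.

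**Figure D5:**
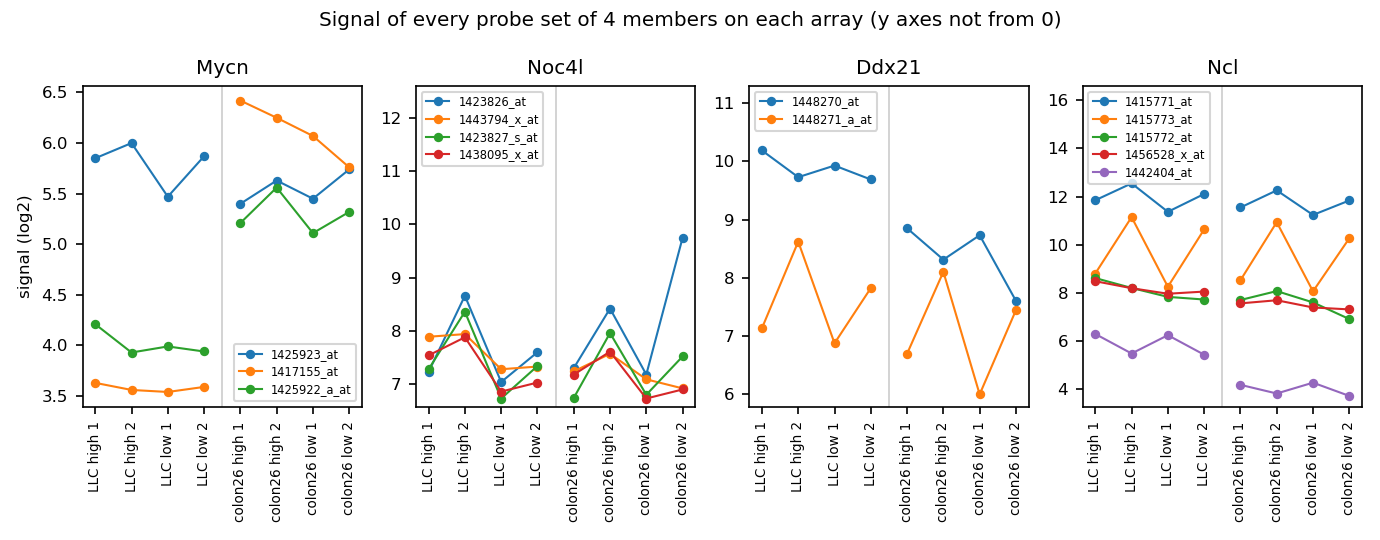
Log2 signal of every probe set of Mycn, Noc4l, Ddx21 and Ncl (1 colour each, y axes not from 0) on each of the 8 arrays, LLC left and colon26 right of the grey line. The Mycn sets 1417155_at and 1425922_a_at are lower in LLC while 1425923_at is not, and 1 of 4 Noc4l sets peaks at 9.75 on colon26 low array 2.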

How the data were processed

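Total RNA of sorted tumour cells was extracted with Trizol and hybridised as biotin-labelled cRNA to Affymetrix mouse arrays of 1 colour, according to the labels. The authors deposited 1 table of 45101 probe sets by 8 arrays, summarised by RMA per the submitters' processing notes, with values on a log2 scale. Software and options of RMA were not given in the sources used. Probe sets were named by GEO's platform annotation, in which 34945 carry 1 gene symbol, 932 several and 9160 none, and 64 are controls, with symbols updated to RefSeq (GRCm38.p6) by gene ID. The colon26 descriptions name LLC, and the titles, sources and cell line fields, which say colon26, were followed. The number of arrays, 2 per group, limits the precision.

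Each gene took its probe set with the highest mean, and 12177 genes with a log2 value above 5 on at least 2 arrays were tested. limma 3.58.1 in R 4.3.3 was fitted to all 8 arrays with eBayes and a Benjamini-Hochberg threshold of 0.05 over all genes of a contrast. High minus low blocked on line by number, leaving 2 residual degrees of freedom (prior 8.25). The samples pair by deviations from the group means, which correlated at 0.89 in LLC and 0.84 in colon26 between same-numbered arrays. Same-numbered arrays of different lines correlated at 0.74 to 0.84, nearly as closely, so the number shifted all 4 groups alike to a large extent. The labels give no source of the pairing beyond the number. LLC minus colon26 blocked on the number shared by the lines, leaving 3 (prior 5.16). The high minus low fit was tested on simulated data with independent noise and planted changes larger than those called among the members. That test does not bear on changes as small as theirs.

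The members and lists were chosen with earlier results of these data known, and a list is described by counts and its median, with no test. Values on every array are given for Myc, Mycn, Npm1, Ncl, Odc1, Ubtf, the members called in the sort comparisons and 6 more called between the lines by smallest p. Up to 4 genes of a list with the smallest p over both lines are named. Alternatives were no filter, a filter of 7, quantile normalization, median centring, trend and robust moderation, the mean of all probe sets, every probe set as a unit, no block, a shared block, only the arrays of a line, and leaving out each pair or array. Values within each number were added after the data were seen. Python 3.11.15 with matplotlib 3.10.9 drew the figures.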

Additional observations from a re-analysis of the deposited data

Results flagged for a closer look

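Probe sets that do not stand for their gene were not used in the comparisons. With every probe set as a unit, 11 of their high minus low changes passed limma where the gene's own set did not pass. Over both lines these were a set of the helicase gene Ddx21 (1448271_a_at, 0.60), of Mybbp1a (1423430_at, 0.54), 2 of nucleolin, Ncl (1415773_at, 0.55, and 1415772_at, 0.63), 2 of Noc4l (1443794_x_at, 0.51, and 1438095_x_at, 0.67) and 1 of Wdr43 (1428389_s_at, 0.52). In LLC they were 2 sets of Noc4l (1423827_s_at, 0.79, and 1438095_x_at, 0.77) and 2 of Pa2g4 (1423060_at, 0.90, and 1420142_s_at, 0.95). All 11 were positive. Conversely, further sets of members that rose over both lines did not pass: Bop1 (1430491_at, −0.05, adjusted p = 0.87), Fbl (1416684_at, 0.48, adjusted p = 0.075), Nolc1 (1450087_a_at, 0.64, adjusted p = 0.070) and Rrp1b (1452118_at, 0.23, adjusted p = 0.35). In all, 7 of the 15 further sets of these members did not pass. A set of Heatr1 (1437965_at) read −0.36 over both lines (adjusted p = 0.18). Between the lines, too, further sets passed in limma, in either direction, where the gene's own set did not. Examples are Pa2g4 (1420142_s_at), higher in LLC by 1.23 among high cells (adjusted p = 0.0044), and Mybbp1a (1423430_at), at −0.63 among low cells (adjusted p = 0.042). No member passed the test of a difference between the lines in the sort effect (1 at an unadjusted p under 0.05 in limma), and groups of 2 arrays are too small for a test of outlying arrays.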

How the results depend on the processing

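No called change reversed its direction under the alternatives with 1 value per gene. With every probe set as a unit, some further sets of called genes read the other way. Bop1 (1430491_at) read −0.05 over both lines and Wdr12 (1417270_at) −0.16 in LLC. In LLC minus colon26 among low cells, Noc3l (1437500_at) read 0.24, and Noc4l 0.30 (1443794_x_at) and 0.13 (1438095_x_at). None of these sets were called there. The 7 members called in LLC were 4 with no filter, 15 with a filter of 7, 13 after median centring, 16 with trend and robust moderation, 3 with a block shared by the lines and 3 with only the LLC arrays, and leaving out a pair gave 0 to 3. The 12 over both lines were 6 after quantile normalization and 0 to 8 on leaving out a pair, and the mean of all probe sets ended the calls of Wdr12, Bop1 and Nop16. Without the replicate block both counts were 0, with 5 and 6 at an unadjusted p under 0.05 in limma against 6.52% and 8.06% of all genes. The share of all genes called in LLC, in either direction, moved as well. It was 11.02% in the main fit, 5.62% with no filter, 18.69% with a filter of 7, 12.45% after median centring and 14.58% with trend and robust moderation. Over both lines that share was 13.04%, and 9.68% after quantile normalization. The counts of 0 in colon26 and in the difference between lines were 0 under each alternative run. Between the lines, the 7 among high cells were 13 with the mean of all probe sets, 14 with every probe set, 1 without the replicate block and 3 to 10 on leaving out an array. The 11 among low cells were 17 with every probe set, 1 without the replicate block and 2 to 12 on leaving out an array. Of all genes 39.2% among high and 46.16% among low cells were called between the lines in the main fit, and 11.33% and 14.0% without the block. The causes were not tested, apart from the fewer arrays and residual degrees of freedom that leaving out a pair brings. With 2 arrays per group, the smallest of the members' changes called over both lines was 0.49. The number 2 minus number 1 shift of the members' probe sets ranged from −1.10 to 2.09, with a median of 0.18, and was smaller in size than the change over both lines for 7 of the 12.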
